A study of Mus musculus with 8 samples.

Results

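The CDK inhibitors and the retinoblastoma family are 10 genes that hold the cell cycle in G1: Cdkn1a, Cdkn1b, Cdkn1c, Cdkn2a, Cdkn2b, Cdkn2c, Cdkn2d, Rb1, Rbl1 and Rbl2. They were found through the RefSeq accessions that the array design gives for its probes, which returned 14 of the 55681 probes, and 12 of these passed a filter on dim signals. All 10 genes kept at least 1 probe, out of 26247 genes tested. Expression was measured on 8 one-colour arrays, 2 in each of 4 groups. The parental cells were N18TG2, a mouse neuroblastoma line, and arrays were run on them without treatment and after retinoic acid (RA, the all-trans form), which derives from vitamin A and is used to differentiate such cells. The other line was the 2/4 clone of N18TG2, which expresses ChAT (choline acetyltransferase, the acetylcholine-making enzyme), and it too was measured untreated and with RA. The dose of RA was 1 µM in a medium of 1% serum, whereas cells were grown in 10% serum, and the clone alone was kept in G418, a selection drug, at 200 µg/mL. The medium of the untreated cells and the length of the treatment are not given in the sources used here. Serum may therefore go with RA, and G418 goes with the clone. The clone is a single clone, so a difference between the lines and a difference particular to that isolate cannot be told apart.

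Cyclin-dependent kinases (CDKs) drive cells through the cycle when a cyclin activates them. The Cip/Kip inhibitors p21 (Cdkn1a), p27 (Cdkn1b) and p57 (Cdkn1c) bind cyclin-CDK complexes broadly. The INK4 inhibitors p16 (Cdkn2a), p15 (Cdkn2b), p18 (Cdkn2c) and p19 (Cdkn2d) bind the kinases CDK4 and CDK6. The pocket proteins RB (Rb1), p107 (Rbl1) and p130 (Rbl2) repress E2F target genes until CDKs phosphorylate them. RA slows the growth of many neuroblastoma lines as they extend neurites, and p27 is among the inhibitors known to accumulate there as a protein. Arrays read RNA only, so control of these inhibitors by protein degradation or phosphorylation was not measured.

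The results turn on Cdkn1a and Rbl1, and the bases before their starts are shown because they hold sites by which p53 and E2F are known to act on such genes. The windows are the 250 bases before each annotated start, from the RefSeq promoter table of build GRCm38.p6, which held 11 windows for 8 of the 10 genes. The 2 starts of Cdkn1a lie on the plus strand at chr17:29090729-29090978 and chr17:29093519-29093768, and the window of Rbl1 lies on the minus strand at chr2:157204535-157204784. Capitals mark matches on either strand to the E2F letters TTTCGCGC, the GC box GGGCGG, the TATA letters TATAA and the p53 response element consensus. The last was read as a pair of 10-base sites with up to 1 mismatch in the pair and up to 13 bases between them. The TATA and p53 searches were added after these sequences had been seen.
Cdkn1a, upstream start: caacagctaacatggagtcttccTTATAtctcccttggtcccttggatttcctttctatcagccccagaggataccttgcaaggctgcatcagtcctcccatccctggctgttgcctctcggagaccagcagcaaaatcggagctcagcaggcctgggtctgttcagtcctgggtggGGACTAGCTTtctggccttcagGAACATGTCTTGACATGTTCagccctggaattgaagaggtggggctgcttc
Cdkn1a, downstream start: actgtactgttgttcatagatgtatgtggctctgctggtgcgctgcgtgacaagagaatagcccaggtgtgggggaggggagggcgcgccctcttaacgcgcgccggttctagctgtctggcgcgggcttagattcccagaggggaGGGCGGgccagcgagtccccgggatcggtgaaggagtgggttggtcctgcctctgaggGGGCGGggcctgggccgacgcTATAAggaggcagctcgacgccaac
Rbl1: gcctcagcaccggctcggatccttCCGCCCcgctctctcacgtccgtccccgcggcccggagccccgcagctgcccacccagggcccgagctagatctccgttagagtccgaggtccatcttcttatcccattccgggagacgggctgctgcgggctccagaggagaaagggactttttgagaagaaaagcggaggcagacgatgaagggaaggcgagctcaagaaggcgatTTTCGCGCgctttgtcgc

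The upstream window of Cdkn1a held 2 matches to the p53 consensus, beginning 73 and 51 bases before the start and sharing a site, and 0.505% of the 32851 promoter windows of this length held any. The downstream window held the GC box 2 times, 104 and 46 bases before the start, and the TATA letters 25 bases before it, which 32.7% and 22.8% of all windows also hold. Rbl1 was the only one of the 8 genes with a window to hold the E2F letters TTTCGCGC, 18 bases before its start, against 0.256% of all windows. These matches describe letters, and no binding was measured. Which start each Cdkn1a probe reads was not analysed here.

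Levels are log2 intensities relative to the 75th percentile of each array, so a level of 0 is the 75th percentile and a difference of 1 is a factor of 2. Differences carry their standard error and a limma p-value, adjusted by the Benjamini-Hochberg method over all 26247 genes, with n = 2 arrays in each group. A gene was called at an adjusted p under 0.05. The labels do not state whether the 2 samples of a group were independent cultures, so the p-values may measure technical spread only. The 75th percentile of intensity ran from 264.8 to 1264, and 47.7% to 62.8% of probes were well above background on 7 arrays against 71.7% on clone RA replicate 1. The replicate correlation across genes was 0.963 in the RA-treated clone and 0.983 to 0.987 in the other groups. Slide row 1 carried the untreated clone and the parental cells with RA, and row 2 the other groups, so slide row goes with every comparison of 2 groups below and with the difference between the RA responses. It cancels in the averages over both lines or both treatments. Of 14 sympathoadrenal markers, 12 were well above background on all 8 arrays, and the hippocampal markers Prox1, Neurod6, Neurod2 and Fezf2 were on none, although hippocampus is named as the RNA source in the extraction protocol. Summed relative intensity reached at most 16.3 for hippocampal neurons, 2.13 for Schwann cells and glia, 3.43 for fibroblasts and 9.38 for blood, vessel and microglial markers. These sums are over different probes and numbers of genes, so they are not set against each other or against the sympathoadrenal list, and they give no share of cells.

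**Figure D1:**
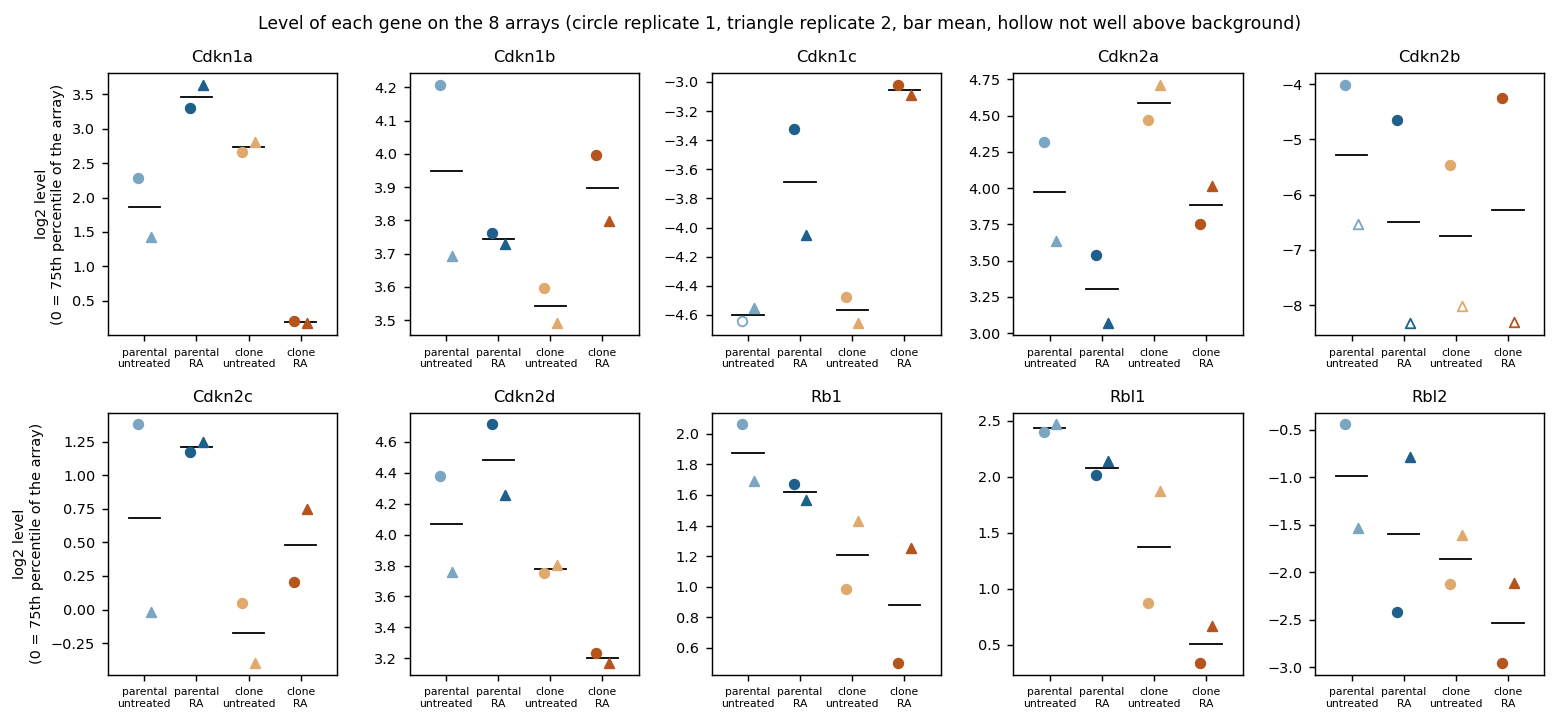
Level of each of the 10 genes on the 8 arrays, as log2 intensity relative to the 75th percentile of the array (vertical axis, which differs between panels), by group (horizontal axis). Circles are replicate 1, triangles replicate 2, bars group means and hollow symbols arrays on which the probe was not well above background. Cdkn1a is highest in parental cells with RA (3.29 and 3.63) and lowest in the clone with RA (0.21 and 0.17), and the levels of Rbl1 in the 4 clone arrays lie below those of the 4 parental arrays.

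Of the 10 genes, 3 were called between the lines under RA and all of these were lower in the clone, where 23.2% of all genes were called, 12.9% higher and 10.2% lower. In the clone RA raised 1 and lowered 1, and 4.63% of all genes were called. The difference between the RA responses was called for 1 gene, when 0.206% of all genes were called. Between the untreated lines 0 were called by limma and 2 had an unadjusted p under 0.05, when 9.84% of all genes were called. With RA in parental cells 0 were called by limma and 2 had an unadjusted p under 0.05, when 1.13% of all genes were called. These shares are at the adjusted threshold. The share of all genes with an unadjusted p under 0.05 is not given here, so the unadjusted counts cannot be set against a background. Averaged over treatments 3 were lower in the clone, where 27.7% of all genes were called and 11.6% lower, and averaged over lines 1 rose with RA, where 5.83% were called. Under RA and on average, the share of the 10 genes called between the lines in either direction was near that of all genes. The share called lower was larger than the 10.2% and 11.6% of all genes called lower. With only 10 genes these counts set nothing apart, and the description that follows is by gene.

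Cdkn1a, which encodes the p53-inducible inhibitor p21, was the 1 gene of the 10 whose RA response was called different between the lines. Its level was 2.29 and 1.42 in untreated parental cells and 3.29 and 3.63 in parental cells with RA. In the untreated clone it was 2.66 and 2.80, and in the clone with RA it was 0.21 and 0.17. The 4 groups did not overlap, and their order from high to low was parental with RA, untreated clone, untreated parental and clone with RA. The probe is printed 10 times on each array, and the SD of those spots within an array was 0.024 to 0.058.

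In the clone, Cdkn1a fell by 2.54 ± 0.35 with RA, a 5.82-fold change (limma adjusted p = 0.0210). In parental cells it read 3.04-fold higher with RA, a difference of 1.61 ± 0.35 that did not pass (limma adjusted p = 0.0887). The difference between the responses was -4.15 ± 0.49 (limma adjusted p = 0.0416), a call that 0.206% of all genes received. Under RA the clone was 9.66-fold below parental cells (-3.27 ± 0.35, limma adjusted p = 0.00114). Without RA the clone read 1.83-fold above parental cells, with a difference of 0.88 ± 0.35 that did not pass (limma adjusted p = 0.186). Averaged over both treatments, which pools a higher and a lower value, the clone difference was -1.20 ± 0.25 (limma adjusted p = 0.0121), and it was not called without clone untreated replicate 1 (adjusted p = 0.0507). Untreated parental and untreated clone cells, neighbours in the order, thus did not differ beyond the test's threshold, and parental cells with RA and the untreated clone were not tested against each other.

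The difference between the Cdkn1a responses kept its sign in all 19 alternatives, from -4.58 to -3.71, but its call was less steady. It was not called in 11 of them, among them normexp background correction (adjusted p = 0.103), no filter on dim probes (adjusted p = 0.182), every probe as its own feature (adjusted p = 0.0700) and a block for the side of the slide (adjusted p = 0.0578). The other 7 were left-out arrays: parental RA replicate 1 (adjusted p = 0.125) or 2 (0.159), untreated clone replicate 1 (0.221) or 2 (0.257), untreated parental replicate 1 (0.0926) or 2 (0.156) and clone RA replicate 1 (0.0534). Within the 2 sides of the slide, each with 1 array of every group, the difference was -3.46 and -4.83. All 4 arrays of slide row 1 read above all 4 of row 2, and row and response cannot be told apart. The lower Cdkn1a level of the clone under RA was called in all 20 alternatives, with adjusted p from 4.08e-05 to 0.0126. The fall with RA in the clone was not called with no filter (adjusted p = 0.0809), with only the clone arrays fitted (0.100) and without clone untreated replicate 1 (0.132) or 2 (0.175).

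The summed intensity of 14 markers of the sympathoadrenal lineage was highest where Cdkn1a was lowest and lowest where Cdkn1a was highest. Their summed relative intensity was 235 to 314 in untreated parental cells, 99.1 to 146 in parental cells with RA, 290 to 291 in the untreated clone and 469 to 548 in the clone with RA. In this sum the untreated groups overlapped. Between the lines under RA 8 of the 14 were called higher in the clone and 2 lower, where 12.9% and 10.2% of all genes were. Chga was among the higher (3.18 ± 0.29, limma adjusted p = 0.000651) and Dbh among the lower (-3.91 ± 0.43, limma adjusted p = 0.00121). The sum thus does not describe every marker. The part of these markers in the Cdkn1a result was not tested. The second Cdkn1a probe, designed on another transcript, was well above background on 1 array only, clone RA replicate 1, and gives no level for that transcript.

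Cdkn1b and Cdkn1c are the other Cip/Kip genes. Cdkn1b was 4.21 and 3.69 in untreated parental cells, 3.76 and 3.73 with RA, 3.60 and 3.49 in the untreated clone and 4.00 and 3.80 in the clone with RA. The untreated parental arrays spread over most of this range, and no difference of Cdkn1b was called in any of the 7 comparisons. Its RA difference was -0.20 in parental cells (95% interval -0.88 to 0.47) and 0.35 in the clone (95% interval -0.32 to 1.03). RNA for p27 thus showed no called RA response, and changes of up to about a log2 unit lie within those intervals.

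Cdkn1c, an imprinted gene whose product p57 accompanies terminal differentiation in many tissues, was dim. It read -4.64 and -4.55 in untreated parental cells, -3.32 and -4.05 with RA, -4.47 and -4.66 in the untreated clone and -3.02 and -3.09 in the clone with RA. All 4 RA arrays lay above all 4 untreated arrays, a separation that 3.63% of all genes showed. In the clone Cdkn1c rose by 1.51 ± 0.32, a 2.85-fold change (limma adjusted p = 0.0467), and its average over both lines rose by 1.21 ± 0.22 (limma adjusted p = 0.0310). The parental difference alone, 0.91 ± 0.32, was not called (limma adjusted p = 0.244). The probe was not well above background on parental untreated replicate 1, so the parental difference and the average rest in part on a level that is only a bound. The response depended on how dim signals were treated: with normexp background correction it was 0.63 in the clone (adjusted p = 0.654) and 0.28 on average (adjusted p = 0.898), and with quantile normalization 0.74 (adjusted p = 0.398) and 0.73 (adjusted p = 0.274). The call in the clone was lost in 14 of 19 alternatives, among them 6 left-out arrays: the untreated clone arrays (adjusted p = 0.185 for replicate 1, 0.282 for 2), the untreated parental arrays (0.0937 each) and clone RA replicate 1 (0.129) or 2 (0.0549). The average was lost without parental RA replicate 1 (adjusted p = 0.0679), either untreated clone array (0.105 for replicate 1, 0.142 for 2), either untreated parental array (0.122, 0.0902) or clone RA replicate 1 (0.0505).

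**Figure D2:**
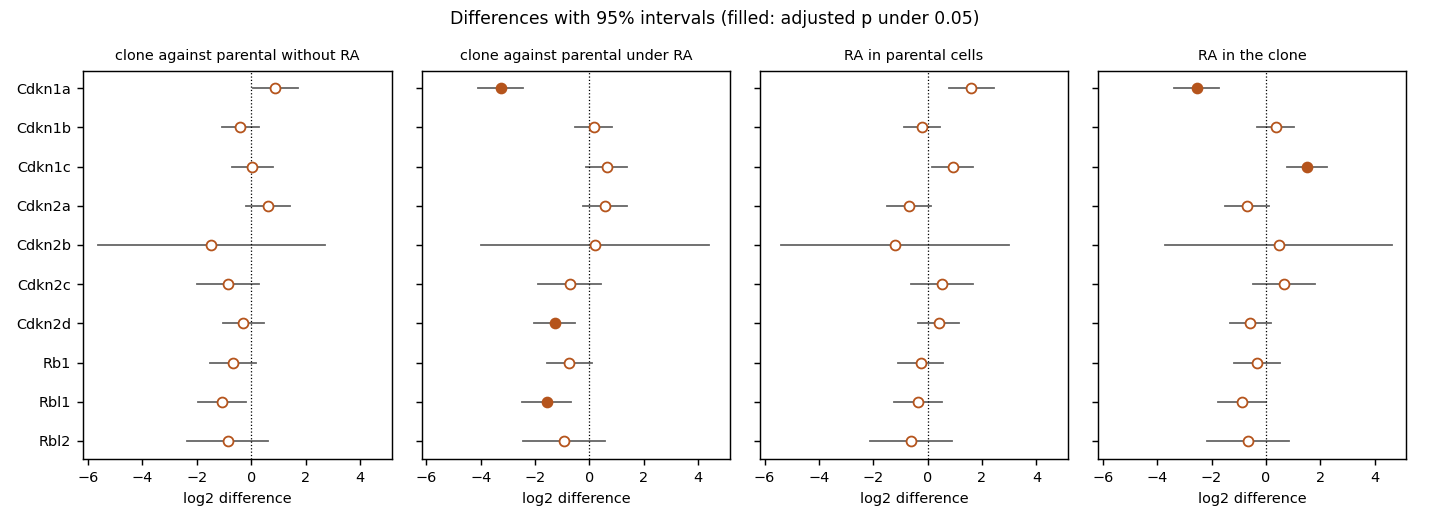
Log2 differences of the 10 genes in 4 comparisons (horizontal axis, 1 panel each) with 95% intervals from the fit, filled where the adjusted p was under 0.05. Cdkn1a (-3.27), Rbl1 (-1.58) and Cdkn2d (-1.28) are filled between the lines under RA, and Cdkn1a (-2.54) and Cdkn1c (1.51) with RA in the clone.

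Among the INK4 genes, Cdkn2d was called between the lines. Its level was 4.38 and 3.76 in untreated parental cells, 4.71 and 4.26 with RA, 3.75 and 3.81 in the untreated clone and 3.23 and 3.17 in the clone with RA. The clone with RA was lowest and did not overlap any other group, while the untreated groups overlapped. Under RA the clone was 2.43-fold below parental cells (-1.28 ± 0.32, limma adjusted p = 0.0291), and over both treatments it was 1.72-fold lower (-0.79 ± 0.23, limma adjusted p = 0.0400). Neither RA response was called, at 0.41 ± 0.32 in parental cells (limma adjusted p = 0.651) and -0.58 ± 0.32 in the clone (limma adjusted p = 0.349). The difference under RA was not called with no filter (adjusted p = 0.0754) or with only those groups fitted (0.0978), nor without parental RA replicate 1 (0.111), either untreated clone array (0.0607 each) or clone RA replicate 1 (0.0746) or 2 (0.0628). The average was lost with no filter (adjusted p = 0.0959), and without parental RA replicate 1 (0.0950), either untreated clone array (0.117 for replicate 1, 0.110 for 2), parental untreated replicate 1 (0.126) or clone RA replicate 1 (0.0681) or 2 (0.0625).

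Cdkn2a, whose locus encodes p16 and, from another first exon, the p53 activator ARF, was read by 2 probes of the same accession. The brighter gave 4.31 and 3.64 in untreated parental cells, 3.54 and 3.07 with RA, 4.47 and 4.71 in the untreated clone and 3.75 and 4.01 in the clone with RA. The other probe gave -0.57 and -0.57, -0.83 and -1.40, 0.17 and 1.03, and -0.43 and 0.53 in the same order of groups. On both probes the untreated clone was highest and parental cells with RA lowest. The brighter probe was 0.60 ± 0.24 higher in the clone on average (limma adjusted p = 0.110) and the other 1.17 ± 0.32 (limma adjusted p = 0.0402, with every probe as its own feature), so the call between the lines depended on the probe. With the mean of both probes the gene was called at 0.88 (adjusted p = 0.0435), and with quantile normalization at 0.65 (adjusted p = 0.0479). With RA the average differences were -0.69 ± 0.24 (limma adjusted p = 0.151) and -0.55 ± 0.32 (limma adjusted p = 0.384 in the probe fit). Which Cdkn2a transcript each probe reads was not analysed here.

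**Figure D3:**
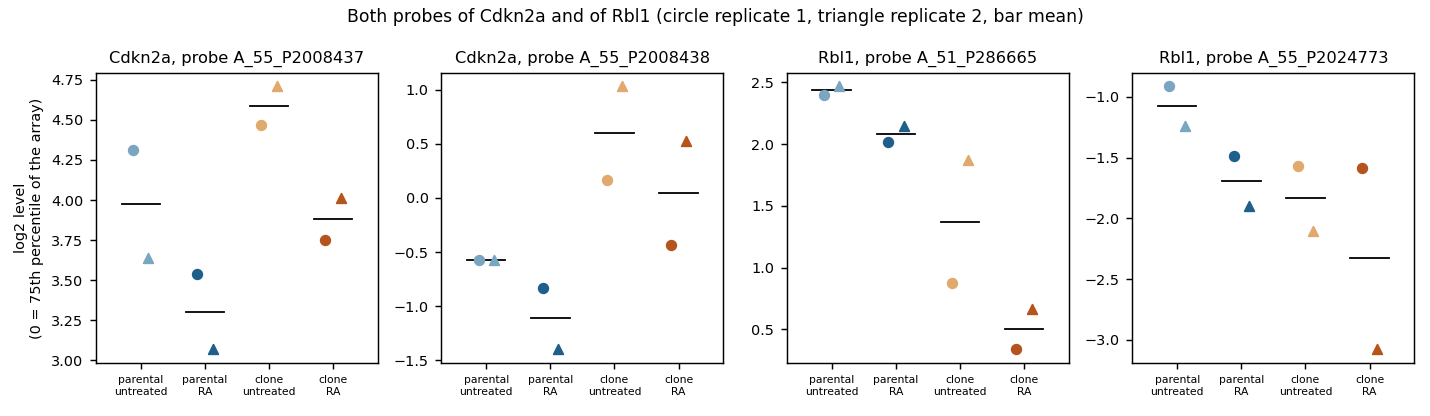
Levels of both probes of Cdkn2a and both of Rbl1 on the 8 arrays, as log2 intensity relative to the 75th percentile of the array (vertical axis, which differs between panels), by group (horizontal axis). Circles are replicate 1, triangles replicate 2 and bars group means. Both Cdkn2a probes are highest in the untreated clone, and the first Rbl1 probe separates all parental from all clone arrays, whereas the second does not.

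Cdkn2c, the gene of p18, was 1.38 and -0.019 in untreated parental cells, 1.18 and 1.25 with RA, 0.048 and -0.40 in the untreated clone and 0.21 and 0.75 in the clone with RA. The untreated parental arrays lay more than a log2 unit apart and covered the range of the clone with RA. Its average difference between the lines was -0.79 ± 0.34 (limma adjusted p = 0.129), and it was called at -1.14 only without parental untreated replicate 2 (adjusted p = 0.0341). Cdkn2b, the gene of p15 and a target of TGF-beta signalling, was well above background on the 4 replicate 1 arrays only. There it read -4.02 in untreated parental cells, -4.64 with RA, -5.47 in the untreated clone and -4.25 in the clone with RA. The replicate 2 arrays lay between -8.33 and -6.54, so Cdkn2b was near the limit of detection, and its second probe was well above background on none.

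The pocket protein genes were all read lower in the clone on average, and Rbl1 was the one called. Rbl1, whose product p107 is itself made under E2F control, was 2.40 and 2.47 in untreated parental cells and 2.01 and 2.14 with RA. It was 0.87 and 1.88 in the untreated clone and 0.34 and 0.66 in the clone with RA. Every clone array lay below every parental array. On average Rbl1 was 2.50-fold lower in the clone (-1.32 ± 0.26, limma adjusted p = 0.0108), which held in all 19 alternatives (adjusted p from 0.00166 to 0.0406). Under RA the clone was 2.99-fold lower (-1.58 ± 0.37, limma adjusted p = 0.0246), and without RA the difference of -1.06 ± 0.37 was not called (limma adjusted p = 0.139). The difference under RA was not called with no filter (adjusted p = 0.0644) or with only those groups fitted (0.0572), nor without parental RA replicate 1 (0.0784) or 2 (0.0984) or clone RA replicate 1 (0.0819).

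The second Rbl1 probe, on another accession, gave -0.91 and -1.24 in untreated parental cells, -1.49 and -1.90 with RA, -1.57 and -2.10 in the untreated clone and -1.58 and -3.08 in the clone with RA. Its ranges overlapped between parental cells with RA and both clone groups. The average difference was -0.70 ± 0.37 and was not called (limma adjusted p = 0.209 with every probe as its own feature). Both probes thus read lower in the clone on average, and the call came from the probe for the first accession.

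Rb1, the retinoblastoma tumour suppressor gene, was 2.06 and 1.69 in untreated parental cells, 1.67 and 1.57 with RA, 0.98 and 1.43 in the untreated clone and 0.50 and 1.25 in the clone with RA. All 4 clone arrays lay below all 4 parental arrays, as for Rbl1. These were the 2 of the 10 genes that separated the lines downwards, and 10.2% of all genes did so. The Rb1 difference of -0.70 ± 0.25 was not called (limma adjusted p = 0.0775). It was called with only probes well above background on all arrays (adjusted p = 0.0459), with a trended and robust variance (0.0358) and without clone RA replicate 2, where it was -0.89 (0.0307). Rbl2, the gene of p130, the pocket protein of resting cells, was -0.44 and -1.54 in untreated parental cells, -2.42 and -0.78 with RA, -2.12 and -1.61 in the untreated clone and -2.95 and -2.11 in the clone with RA. In both parental groups the 2 arrays lay more than a log2 unit apart, and the average line difference was -0.90 ± 0.45 (limma adjusted p = 0.181).

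Most genes of the lists linked to E2F and mitosis read lower in the clone than in parental cells under RA, and part of them were called. All 10 E2F factors and DP partners read lower there and 6 were called, with a median of -1.04 against 0.11 for all genes. Of all genes 10.2% were called lower in that comparison. E2f8 was -3.11 ± 0.30 (limma adjusted p = 0.000793) and E2f7 -2.90 ± 0.30 (limma adjusted p = 0.000992). Both encode atypical repressors of the family. E2f2, the gene of an activator, was -2.87 ± 0.25 (limma adjusted p = 0.000541). The count was 3 to 5 with 1 array left out, and 3 without parental RA replicate 1, clone RA replicate 1 or any 1 of the 4 untreated arrays. Of the 10, 1 was called lower between the untreated lines (E2f8, -1.65 ± 0.30, limma adjusted p = 0.0171), a count that was 0 without any 1 of the 4 untreated arrays. Between those lines 9.84% of all genes were called in either direction, so a count of 1 sets nothing apart. With RA in parental cells 0 of the 10 were called, when 1.13% of all genes were. In the clone 1 was called lower with RA, E2f2 at -1.37 ± 0.25 (limma adjusted p = 0.0342), and 0 without either array of the RA-treated clone or any 1 untreated array. Of all genes 2.05% were called lower with RA in the clone.

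The DREAM complex joins p107 or p130 to the MuvB core, which later binds B-Myb and FoxM1 to turn on mitotic genes. Of its 8 listed genes, 3 were lower in the clone under RA and 0 higher, with a median of -1.05, when 10.2% of all genes were called lower. The 3 were Mybl2, the gene of B-Myb (-2.28 ± 0.26, limma adjusted p = 0.00145), and the MuvB subunits Lin54 (-1.94 ± 0.32, limma adjusted p = 0.00601) and Lin52 (4.01-fold lower, limma adjusted p = 0.00775). Mybl2 was also the 1 gene of the list that fell with RA in the clone (-1.75 ± 0.26, limma adjusted p = 0.0222), though 0 were called without any 1 untreated array. Of all genes 2.05% were called lower with RA in the clone. Of the 24 mitotic targets of B-Myb and FoxM1, 20 were lower in the clone under RA, with a median of -1.80. Tpx2, a spindle assembly factor, was -2.89 ± 0.30 (limma adjusted p = 0.00104), and Top2a, the topoisomerase that untangles sister chromatids, was -2.41 ± 0.29 (limma adjusted p = 0.00171). All 24 read negative there, and 14 to 19 were called with 1 array left out.

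In the clone, 11 of the 24 mitotic genes fell with RA, with a median of -1.42 against 0.017 for all genes, when 2.05% of all genes were called lower. Ube2c, which conjugates ubiquitin for the anaphase-promoting complex, fell by 2.07 ± 0.31 (limma adjusted p = 0.0232), and the mitotic kinase gene Plk1 by 1.69 ± 0.26 (limma adjusted p = 0.0232). The count was 0 without clone RA replicate 1 or any 1 of the 4 untreated arrays, 7 without either parental RA array and 13 without clone RA replicate 2. It was also 0 with no filter on dim probes or with only the clone arrays fitted, and 18 with only probes well above background on all arrays, while the median stayed between -1.57 and -1.26 over all alternatives. With RA in parental cells 0 of the 24 were called, with a median of 0.096, when 1.13% of all genes were called. For the difference between the RA responses the median was -1.45 and 0 were called, when 0.206% of all genes were.

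**Figure D4:**
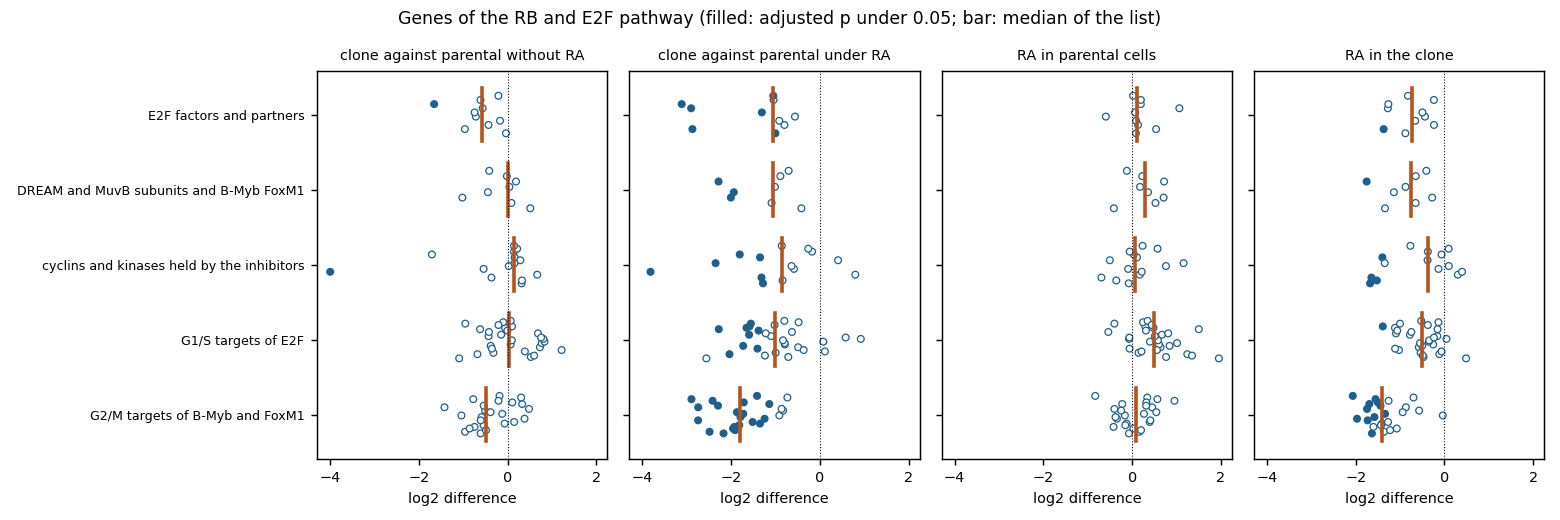
Log2 differences (horizontal axis) of the genes of 5 lists of the RB and E2F pathway (vertical axis) in 4 comparisons (panels). Each point is a gene, filled where the adjusted p was under 0.05, and bars are list medians. Between the lines under RA 20 of 24 mitotic genes and 6 of 10 E2F genes are filled to the left of 0, and with RA in parental cells none of these lists has a filled point.

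Genes that E2F turns on for DNA synthesis were lower in part. Of 28 measured, 9 were lower in the clone under RA and 0 higher, with a median of -1.01, when 10.2% of all genes were called lower. The replication protein gene Rpa2 was -2.28 ± 0.26 (limma adjusted p = 0.00159) and the origin licensing factor Cdc6 -2.04 ± 0.26 (limma adjusted p = 0.00237). The count was 7 to 10 with 1 array left out, 17 with a trended and robust variance and 2 with only those groups fitted. Between the untreated lines 0 were called, with a median of 0.033, when 9.84% of all genes were called. With RA in the clone 1 fell, the ribonucleotide reductase subunit Rrm2 (-1.39 ± 0.25, limma adjusted p = 0.0335), and 0 without clone RA replicate 1 or any 1 untreated array. Of all genes 2.05% were called lower with RA in the clone. The E2F letters of the Rbl1 window, or their variant TTTGGCGC, were in the windows of 6 of the 22 genes of this list that have one, against 0.759% of 27025 genes. They were in 0 of 19 for the mitotic list. The DNA synthesis list was chosen as targets of E2F, so its larger share may follow from that choice. A link of these letters to the levels was not tested.

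Of the cyclins and kinases that the inhibitors hold, 6 of 14 measured genes were lower in the clone under RA and 0 higher, with a median of -0.85. Of all genes 10.2% were called lower there. The mitotic kinase gene Cdk1 was -1.35 ± 0.27 (limma adjusted p = 0.0134). The cyclin genes Ccnd2 and Ccne2 were also called, but were well above background on 5 and 6 of 8 arrays, so no fold is given. The count was 3 without parental RA replicate 1 or clone RA replicate 1, and 2 with only those groups fitted. In the clone 4 fell with RA, among them Ccna2 (-1.68 ± 0.32, limma adjusted p = 0.0384) and Ccnb2 (-1.65 ± 0.32, limma adjusted p = 0.0402), the cyclin partners of S phase and mitosis. Of all genes 2.05% were called lower with RA in the clone. The list's count of 4 was 0 without clone RA replicate 1 or any 1 of the 4 untreated arrays, and 2 without either parental RA array.

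Cdkn1a is a direct target of p53, and 22 other genes from a list of p53 and its targets were measured. With RA in parental cells 0 of them were called by limma, when 1.13% of all genes were. For the difference between the responses 0 were called, when 0.206% of all genes were. With shares this small, a count of 0 sets nothing apart. With RA in the clone 1 rose, the stress gene Sesn1 (2.04 ± 0.38, limma adjusted p = 0.0348), and 1 fell, the damage-response gene Gadd45a (-1.41 ± 0.27, limma adjusted p = 0.0362). Of all genes 4.63% were called with RA in the clone. Without clone RA replicate 1 or any 1 untreated array neither Sesn1 nor Gadd45a was called, and without either parental RA array the lower count was 0. The medians were -0.0083 in parental cells and -0.31 in the clone. Cdkn1a lay outside the range of the list in both lines. Under RA 3 of the 22 were higher in the clone and 2 lower, where 12.9% and 10.2% of all genes were. Sesn1 (2.58 ± 0.38, limma adjusted p = 0.00389) and Zmat3 (1.96 ± 0.27, limma adjusted p = 0.00310) were among the higher. Fas was among the lower (limma adjusted p = 0.00139), but was well above background on 3 of 8 arrays, so no fold is given. Between the untreated lines 2 genes were lower in the clone, among them Fas, again without a fold (limma adjusted p = 0.00924). The 2 called higher were Phlda3 (1.30 ± 0.27, limma adjusted p = 0.0280) and Zmat3 (1.22 ± 0.27, limma adjusted p = 0.0344). Of all genes 9.84% were called between the untreated lines. Without any 1 untreated array both counts of the list were 0, and without either parental RA array the lower count was 1.

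**Figure D5:**
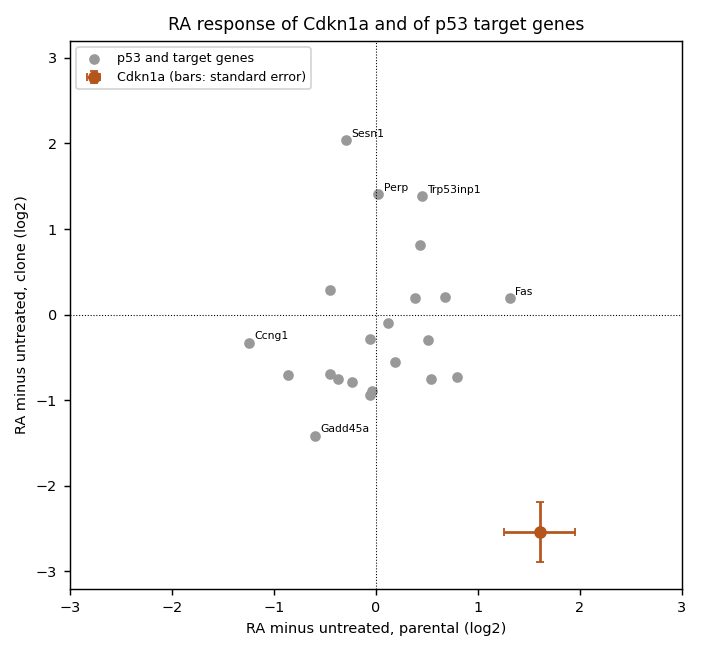
Log2 RA difference in parental cells (horizontal axis) and in the clone (vertical axis) for 22 p53 pathway genes (grey) and for Cdkn1a (orange, bars are standard errors). Names are given where a difference exceeds 1 in size. Cdkn1a lies alone at the lower right, at 1.61 and -2.54.

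Among 30 measured genes known to act on the transcription or turnover of the inhibitors, 4 were higher and 7 lower in the clone under RA. Of all genes 12.9% were called higher there and 10.2% lower, so the higher count was near that of all genes. Lhx2, a LIM homeobox gene, had the smallest adjusted p of the list and was -6.13 ± 0.29 in that comparison (limma adjusted p = 7.88e-05) and -5.23 ± 0.29 between the untreated lines (limma adjusted p = 0.000204). Tbx2, a repressor of Cdkn1a and Cdkn2a, was 3.09 ± 0.30 higher under RA (limma adjusted p = 0.000797) and 1.88 ± 0.30 higher between the untreated lines (limma adjusted p = 0.0100). The related repressor gene Tbx3 was called lower in the clone between the untreated lines (limma adjusted p = 0.00375) and on average (limma adjusted p = 0.00104), but was well above background on 3 of 8 arrays, so no fold is given. Id2, whose product binds RB, was 2.06 ± 0.32 higher under RA (limma adjusted p = 0.00528). Klf4, an activator of Cdkn1a, fell with RA in the clone by 1.82 ± 0.27 (limma adjusted p = 0.0225). Smad3, which carries TGF-beta signals to Cdkn1a and Cdkn2b, rose with RA in parental cells by 1.89 ± 0.30 (limma adjusted p = 0.0419). It was the 1 gene of the list called there, when 1.13% of all genes were. Without any 1 untreated array or clone RA replicate 1, Klf4 and its list had 0 calls with RA in the clone. Under RA the higher count was 2 without parental RA replicate 2. Without parental RA replicate 1 the lower count was 2, without parental RA replicate 2 or clone RA replicate 1 it was 3, and without any 1 untreated array it was 4.

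Of 12 other measured genes that restrain CDKs, 2 were higher and 3 lower in the clone under RA. Of all genes 12.9% were called higher there and 10.2% lower, so the higher count was near that of all genes. Hexim1, which holds the transcription kinase P-TEFb, was 2.09 ± 0.25 higher (limma adjusted p = 0.00187), and Wee1, the kinase that keeps CDK1 inactive, was -1.28 ± 0.29 (limma adjusted p = 0.0206). With RA in the clone 2 fell: Cdkn3, a phosphatase of CDKs named as an inhibitor (-2.22 ± 0.30, limma adjusted p = 0.0210), and Pkmyt1, another inhibitory kinase of CDK1 (-1.54 ± 0.27, limma adjusted p = 0.0312). Of all genes 2.05% were called lower with RA in the clone. The list's count of 2 was 0 without any 1 untreated array and 1 without clone RA replicate 1. Under RA the lower count was 0 without parental RA replicate 2, 2 without clone RA replicate 2 and 1 without any other array, and the higher count was 1 without any 1 RA array. Of 15 chromatin partners of the pocket proteins, 2 were higher in the clone under RA and 0 lower, a share near the background for higher calls. Smarca2, an ATPase of the SWI/SNF remodeller, was 3.84 ± 0.40 higher (limma adjusted p = 0.00101), and Sin3b was called but was well above background on 6 of 8 arrays, so no fold is given.

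The genes whose pattern over the 8 arrays was most like that of a called member were found by the root mean square difference between centred log2 levels, among 12184 genes with a symbol that were well above background on every array. Nearest to Cdkn1a were Tnfrsf12a (0.447), Grhl1 (0.451) and Ciart (0.461). Their RA differences were 0.72, 0.88 and 0.71 in parental cells and -2.24, -2.19 and -2.36 in the clone. Likeness over these same arrays chose the genes, so sharing the signs of Cdkn1a follows from the choice. Each had a smaller parental difference than Cdkn1a. Nearest to Cdkn2d were Gtf2h5 (0.103), Ndufs3 (0.111) and Alg8 (0.113), and nearest to Rbl1 were Lrr1 (0.119), Ndc1 (0.171) and Tbpl1 (0.180). The distances were larger for Cdkn1a, whose levels span a wider range than those of the other called genes.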

How the data were processed

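Per the file headers, Feature Extraction 10.7.3.1 subtracted background from the intensity of each spot and detrended it within each of the 8 one-colour arrays, without scaling arrays to each other. The series table, deposited as log2, matched the log2 intensity less 1 constant per array and served as an alternative. Background flags and spot positions were used as deposited. From the intensities, log2 was taken less the 75th percentile over non-control spots, outlier spots were left out, spots of a probe were averaged, and probes had to be well above background on 2 or more of the 8 arrays. Each gene was read by its brightest such probe. A limma 3.58.1 model (R 4.3.3) with a mean for each group used all arrays, with 4 residual degrees of freedom, and the script was tested on simulated data. The number of arrays limits the precision. Named pathway genes are up to 3 called genes with the smallest adjusted p per list and comparison. The members and lists were chosen with earlier results of these data known. Alternatives were normexp (offset 50, on the median signal because the files hold no mean), quantile normalization, the series table, filters, a floor, other probe rules, outlier spots kept, a variance trend with robust fitting, fits on the compared groups alone, a block for the slide's side, and each array left out. Gene symbols came from RefSeq accessions.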

Additional observations from a re-analysis of the deposited data

Results flagged for a closer look

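Cdkn1a stood out because its response to RA differed between the lines by the test of the difference itself. The response of the clone minus that of the parental cells was -4.15 ± 0.49 on the log2 scale (limma adjusted p = 0.0416), with 5.82-fold less signal under RA in the clone (adjusted p = 0.0210) and 3.04-fold more in parental cells, a difference that did not pass (adjusted p = 0.0887). The difference between the responses was not called in 11 of 19 alternatives, over which its adjusted p ran from 0.00269 to 0.257. The 2 arrays of each group moved with their group. Slide row goes with this difference and cannot be told apart from it.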

How the results depend on the processing

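Of the 1356 member values under alternatives, 1237 kept their direction and their side of the threshold, 58 lost a call, 8 gained one and 53 changed sign, and all that changed sign were uncalled values. The number of the 10 genes called between the lines under RA went from 3 to 1 with no filter and with only those groups fitted. With RA in parental cells it went from 0 to 1 with a trended and robust variance and with only probes well above background everywhere. With RA in the clone it went from 2 to 1 with normexp, quantile normalization, the series table, the stricter filter, every probe as its own feature, a trended and robust variance and the side of the slide as a replicate block, and to 0 with no filter and with only the groups compared. For the difference between the responses it went from 1 to 0 with normexp, no filter, every probe as its own feature and the replicate block. For the average RA difference it went from 1 to 0 with normexp, quantile normalization, no filter and the stricter filter. With 1 array left out the counts ran from 0 to 0 between the untreated lines, 1 to 3 under RA, 0 to 0 with RA in parental cells, 0 to 2 in the clone, 0 to 1 for the difference, 1 to 4 for the average line difference and 0 to 1 for the average RA difference. No filter tests more genes and the fits on only the groups compared hold fewer arrays. The stricter filter left Cdkn1c untested, as its probe was well above background on 7 of 8 arrays. Apart from that untested gene, why the counts moved was not tested for any setting. The numbers of the replicates are in accession order and pair nothing by label.

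With normexp the signs turned for Cdkn1c between the untreated lines (-0.36), with RA in parental cells (-0.070) and in the average line difference (-0.013), and for Rbl2 in the difference between responses (0.0011). With quantile normalization they turned for Cdkn1c between the untreated lines (-0.10), under RA (-0.084) and in the average line difference (-0.093), for Cdkn2b under RA (-0.99) and with RA in the clone (-0.39), for Cdkn2a (0.25) and Rb1 (0.0025) in the difference between responses, and for Cdkn2d in the average RA difference (0.075). With a floor for dim signals Cdkn2b turned in the average RA difference (0.15). These scalings moved the median of all genes as well, to -0.19 between the untreated lines and -0.22 with RA in parental cells under normexp, and to -0.14 between the lines under RA under quantile normalization, against 0.11, 0.021 and 0.11.

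With 1 array left out, signs turned within these ranges. Between the untreated lines Cdkn1c ran from -0.060 to 0.12 and Cdkn2d from -0.60 to 0.018, and under RA Cdkn2b ran from -1.83 to 2.24. With RA in parental cells Cdkn1b ran from -0.46 to 0.053, Cdkn2b from -3.05 to 0.63, Cdkn2c from -0.17 to 1.23 and Rbl2 from -1.43 to 0.21. With RA in the clone Cdkn2b ran from -1.57 to 2.50 and Rb1 from -0.71 to 0.045. In the difference between responses Cdkn2a ran from -0.37 to 0.31, Cdkn2b from -0.36 to 3.71, Cdkn2c from -0.58 to 0.82, Rb1 from -0.45 to 0.30 and Rbl2 from -0.87 to 0.76. In the average line difference Cdkn1b ran from -0.25 to 0.0024 and Cdkn2b from -1.65 to 0.39. In the average RA difference Cdkn1b ran from -0.054 to 0.20, Cdkn2b from -1.39 to 0.65 and Cdkn2d from -0.24 to 0.074. Signal over background limits Cdkn1c and Cdkn2b, which were not well above background on every array.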
